A study of Bos taurus with 6 samples.

Results

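Wnt proteins are secreted, lipid-modified signals that bind Frizzled receptors on the cell surface. With the coreceptors LRP5 and LRP6 they stop a cytoplasmic complex of AXIN, APC and GSK3 from destroying beta-catenin, which then joins TCF and LEF factors on DNA, and other branches run through ROR2 and RYK without beta-catenin. In the mouse ovary, Wnt4 and beta-catenin take part in gonad formation and in the maturation of granulosa cells, the somatic cells around the oocyte. The genes described here are those whose symbol in the array's annotation starts with WNT, FZD, SFRP or DKK and a digit, or is 1 of 24 named pathway symbols such as CTNNB1, AXIN1 and LRP6. They were 55 genes on 64 probes, of 15229 named genes and 43794 probes in all. No probe carried the symbols GSK3B, ZNRF3 or WLS, and WNT4 was not analysed here. The choice used names and no measured value.

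RNA of granulosa cells from Holstein follicles of 2 to 6 mm was compared on 6 two-colour microarrays, on which 2 RNAs compete for the same probes in different dyes. FGF8, a signalling protein recognised by FGF receptors, had been given to the treated cells at 10 ng/ml for 2 h. The control cells are labelled 0 h, so FGF8 and 2 h more in culture cannot be told apart. Both had spent 5 days without serum in medium holding FSH and insulin, each at 10 ng/ml. There were 3 biological replicates, each a treated and a control RNA hybridised once with the treated RNA in Cy5 and once in Cy3. The sources do not say whether these came from separate animals or cultures, so the p-values measure the spread between these samples, which may be technical. The RNA had been amplified in 2 rounds. Since it came from whole cultures, fewer cells of a type and less RNA per cell cannot be told apart.

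The replicates had little in common across the array. The ratios of treated over control RNA correlated across 27209 probes at 0.01 between replicates 1 and 2, at -0.01 between replicates 1 and 3 and at 0.11 between replicates 2 and 3. The dye swaps of replicates 1 and 3 correlated at 0.46 and 0.48, and that of replicate 2 at -0.11, so ratios on its arrays leaned slightly to opposite signs. Whether the dyes of replicate 2 were recorded as they were used is not settled by the files, so the sign of each value of replicate 2 rests on its labels. Of 14 granulosa markers, 12 were above background, among them FSHR and CYP19A1, while FOXL2 and HSD17B1 were not. Markers of other cells were above background too. For theca and stroma they were 7 of 9, without CYP17A1 and LHCGR but with INSL3, on 5 arrays in treated RNA and on 4 in control RNA. For endothelium they were 5 of 6, for leukocytes 4 of 4 and for the oocyte 2 of 3, without GDF9. The oocyte and endothelial signals were low. In treated RNA their markers summed to 228 to 264 and 701 to 825, against 95500 to 114000 for the granulosa markers. On all 6 arrays in both RNAs, 2 of the 5 endothelial and 0 of the 2 oocyte markers were above background. The number of arrays limits the precision of every value given here.

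A probe was taken as above background when at least 4 of the 6 arrays showed one RNA, treated or control, over the 95th percentile of 153 negative control spots. By that rule 38 of the 55 genes (43 of the 64 probes) had a signal. Over the whole array 27209 of 43794 probes were kept, with 11189 genes, against 15185 genes with no filter on dim probes. Of the 38 genes, 17 were above background on all 6 arrays in both RNAs by their brightest probe. The 2 that encode ligands were WNT2B and WNT5B. The others were the receptors FZD1, FZD3, FZD4, LGR4, LRP6, ROR2 and RYK, the inhibitors DKK3, SFRP1 and SFRP2, the cytoplasmic APC, AXIN1 and DVL2, and the nuclear TCF7 and CTNNB1, which encodes beta-catenin. Of the 17 ligand genes 6 were not above background, namely WNT1, WNT3A, WNT5A, WNT8B, WNT9A and WNT10A. Also without a signal were FZD2, FZD5, FZD8, FZD9, FZD10 and ROR1, the inhibitors DKK2, DKK4 and SFRP5, and the Dishevelled genes DVL1 and DVL3. Their probes had mean ratios from -0.28 to 0.24 on the log2 scale, which are not read further.

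**Figure D1:**
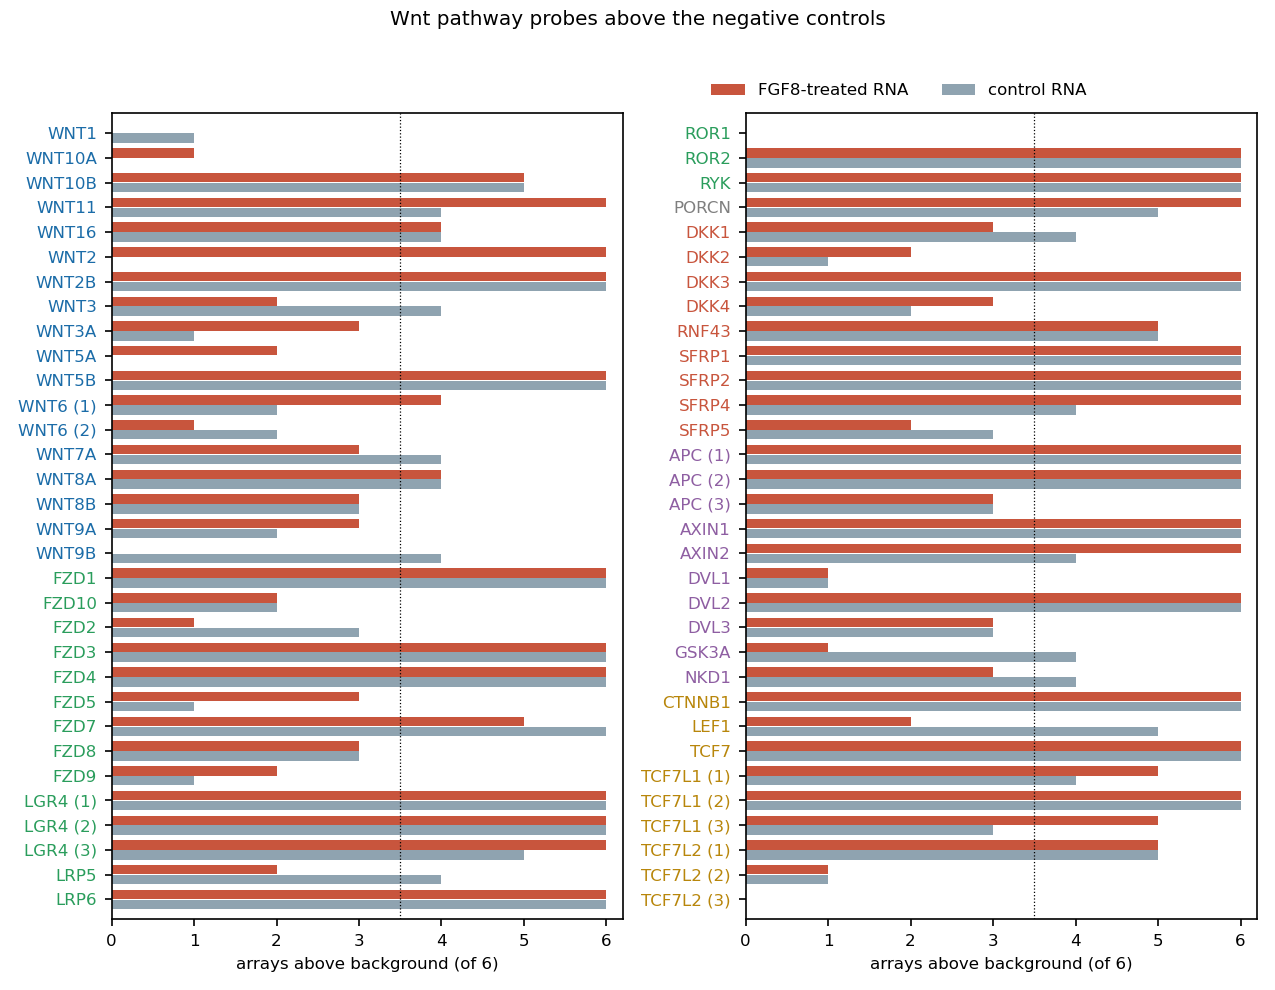
Number of arrays, of 6, on which each of the 64 probes was above the negative control spots in FGF8-treated RNA (red) and in control RNA (grey). Numbers in brackets tell probes of a gene apart, label colours give the role, and bars past the dotted line meet the minimum of 4 arrays; WNT2 stood at 6 arrays in treated RNA and 0 in control RNA, while ROR1 stood at 0 in both.

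Transcripts of the pathway did not differ past the threshold between treated and control cells. Each gene is given by its brightest probe above background, as the log2 ratio of treated over control RNA, with the 2 dye-swapped arrays averaged, the SD over replicates and n = 3. By limma, with Benjamini-Hochberg adjustment over all 27209 probes above background, 0 of the 38 genes had an adjusted p under 0.05, as did 0 of 11189 genes in all (0%). The smallest adjusted p among the 38 was 0.860, against 0.139 among all genes. At an unadjusted p under 0.05 there was 1 of 38 genes, WNT2, where 5.62% of all genes lay under that value. Higher on all 6 arrays were 3 of the 38, WNT2, LGR4 and ROR2, beside 3.46% of all genes. With the mean in place of the median intensity of each spot 1 of 43 was, beside 4.86% of all genes. Lower on all 6 arrays was 1, LEF1, beside 2.52% of all genes. In the means of the 3 replicates, 7 of the 38 were higher each time, beside 13.7% of all genes, and 5 were lower each time, beside 12.7%.

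The median of the 38 ratios was -0.05, against 0.01 over all genes, and it was 0.02, 0.02 and -0.05 in replicates 1, 2 and 3. Of the 38 genes, 28 had enough signal in both RNAs, 14 of them with a mean above 0 and 14 below 0, and the median of these 28 was 0.01. The 2 kept through treated RNA alone were WNT2 and WNT6, and the 8 kept through control RNA alone (DKK1, GSK3A, LEF1, LRP5, NKD1, WNT3, WNT7A and WNT9B) had means below 0, a sign that this way of passing favours. The half-width of the 95% interval had a median of 0.33 over the 38 genes. That interval is not adjusted for the number of probes tested, so a difference had to be well beyond it to be called: TLE3, a gene outside the 38, had a mean of 0.76 and a limma adjusted p of 0.860. The deposited ratios of the series gave the same picture for these genes. Their mean had the same sign for 38 of 38 genes and differed from the values here by at most 0.03 on the log2 scale, the largest difference being that of TCF7L2.

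**Figure D2:**
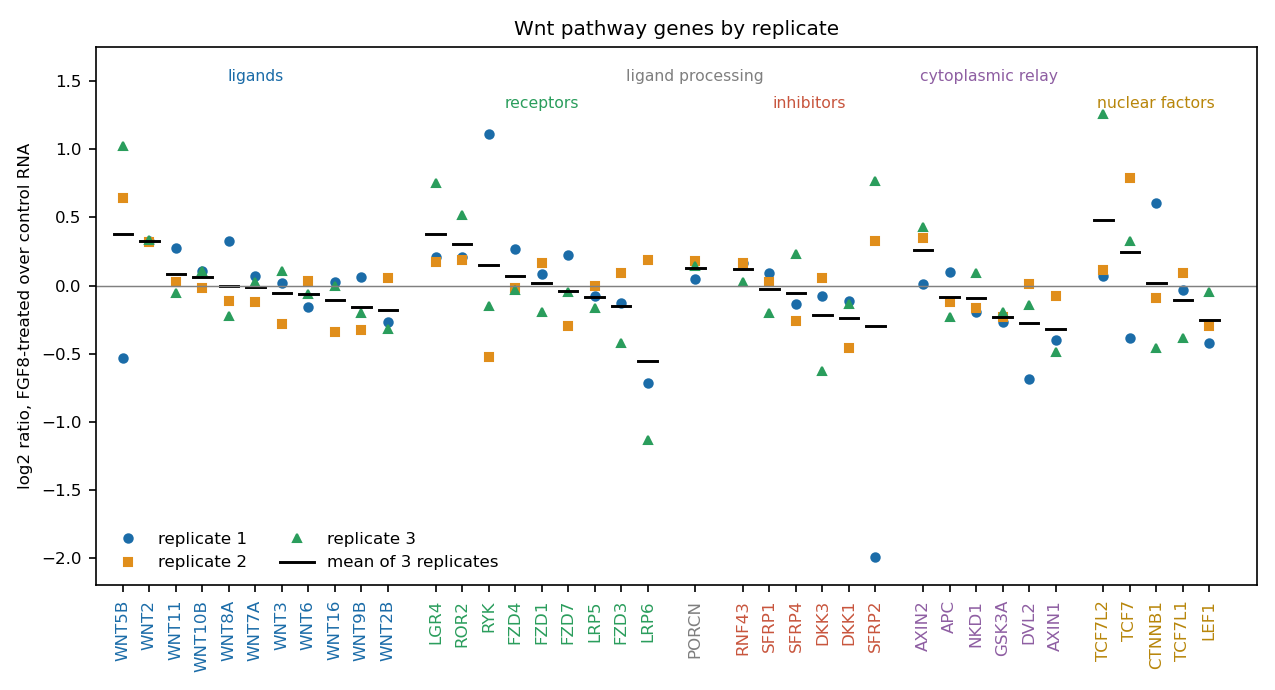
Log2 ratio of FGF8-treated over control RNA in replicates 1, 2 and 3 (points) and their mean (bars) for the 38 genes above background, grouped by role. The means lie between -0.55 (LRP6) and 0.48 (TCF7L2), and the widest spread is that of SFRP2, with -1.99 in replicate 1 against 0.32 and 0.77 in replicates 2 and 3.

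Among the ligands, 11 of 17 genes were above background, 4 of them with a mean above 0, and their median was -0.01. WNT2 encodes a ligand of the beta-catenin branch. Its raw intensity on the arrays of replicates 1, 2 and 3, each with treated RNA in Cy5 and then in Cy3, was 137, 168, 134, 158, 112 and 103 in treated RNA, against 150, 139, 141, 115, 120 and 116 in control RNA. It exceeded the negative controls on all 6 arrays in the treated RNA and on 0 in the control RNA, although the raw values of both overlap, since the arrays and dyes differ in their background. After normalization it was higher on all 6 arrays, by 0.52, 0.47 and 0.50 with the treated RNA in Cy5 and by 0.13, 0.16 and 0.17 with it in Cy3. The mean was 0.32 ± 0.01 (SD, n = 3; limma adjusted p = 0.860), with a 95% interval of 0.03 to 0.62. The replicate means of WNT2 were thus close together, while its 2 dye orientations were apart. With the control RNA raised, where it lay lower, to the faintest signal that passed the background threshold, treated over control came to 1.20-fold. That value is no lower limit, since the 95% interval reaches down to 0.03 on the log2 scale. Since WNT2 was kept through the treated RNA alone, its sign is no support for a difference.

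WNT5B, whose product signals mainly without beta-catenin, was well above background on all arrays. Its raw intensity was 608, 868, 1152, 1260, 1413 and 1675 in treated RNA, against 1133, 870, 887, 694, 865 and 592 in control RNA. It was lower on both arrays of replicate 1 and higher on all 4 arrays of replicates 2 and 3. The replicate means were -0.53, 0.64 and 1.02, which average 0.38 ± 0.81 (SD, n = 3; limma adjusted p = 0.872), and leaving out replicate 1, 2 or 3 gave 0.83, 0.24 or 0.05. WNT2B, a relative of WNT2, averaged -0.18 ± 0.21 (n = 3) with replicate means of -0.27, 0.06 and -0.32. WNT9B was the reverse of WNT2 in detection, above background on 4 arrays in control RNA and on 0 in treated RNA, at -0.15 ± 0.20 with a 95% interval of -0.48 to 0.18 and 0.07 in replicate 1. WNT3, WNT6, WNT7A, WNT8A, WNT10B, WNT11 and WNT16 had means between -0.11 and 0.08. Ligand processing was measured by PORCN, which encodes the enzyme that attaches the lipid to Wnt proteins. PORCN averaged 0.13 ± 0.07 (n = 3; limma adjusted p = 0.890), but stood at 0.37 with the treated RNA in Cy5 and at -0.12 with it in Cy3. WLS, the carrier of Wnt proteins to the cell surface, is on the array under its older symbol GPR177. That gene lies outside the 55, was looked up afterwards and averaged 0.18 ± 0.50.

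Of the receptors and coreceptors, 9 of 15 were above background, with a median of 0.02. LGR4, a receptor of the R-spondins, which amplify Wnt signals, was higher on all 6 arrays. Its ratios were 0.23 and 0.19 in replicate 1, 0.16 and 0.19 in replicate 2, and 0.77 and 0.73 in replicate 3. The orientations gave nearly the same value each time, so the spread lay between replicates. LGR4 averaged 0.38 ± 0.32 (SD, n = 3; limma adjusted p = 0.860, 95% interval -0.01 to 0.76), and 0.19 without replicate 3. Its other probes stood at 0.23 and 0.00, so the probes disagree in size. ROR2, a receptor tyrosine kinase for WNT5A, had ratios of 0.08, 0.34, 0.15, 0.22, 0.58 and 0.45 on the 6 arrays. It averaged 0.30 ± 0.18 (n = 3; limma adjusted p = 0.860).

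LRP6, the coreceptor of the beta-catenin branch, had the largest mean in size among the 38. Its raw intensity was 5191, 5580, 7063, 9308, 4656 and 5937 in treated RNA, against 9233, 7265, 9404, 5150, 12841 and 8820 in control RNA. Treated RNA was lower on 5 of 6 arrays and higher on the array of replicate 2 with treated RNA in Cy3. The replicate means of -0.72, 0.19 and -1.13 average -0.55 ± 0.67 (n = 3; limma adjusted p = 0.860), a 1.47-fold lower level with an interval of -1.16 to 0.05. LRP6 was also among the probes with a dye effect, and averaged -0.92 without replicate 2 and -0.27 without replicate 3. RYK, a Wnt receptor with an inactive kinase domain, was picked after its values were seen, for the size of its spread. RYK had replicate means of 1.11, -0.52 and -0.15, with the same sign on both arrays of each replicate, and averaged 0.15 ± 0.86. FZD1, FZD3, FZD4, FZD7 and LRP5 had means between -0.15 and 0.07.

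**Figure D3:**
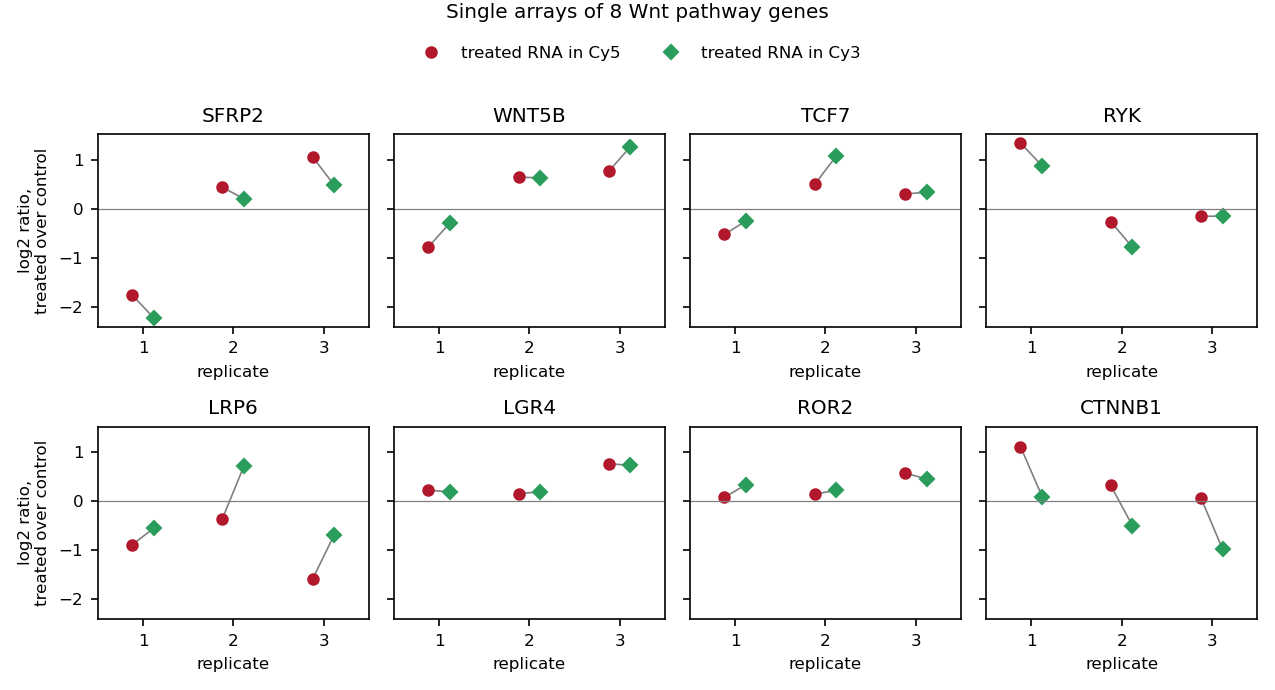
Log2 ratio of FGF8-treated over control RNA on each of the 6 arrays for 8 genes picked after their values were seen; red circles carry the treated RNA in Cy5, green diamonds in Cy3, and lines join the dye-swapped arrays of a replicate. In SFRP2, WNT5B, TCF7 and RYK both arrays of a replicate lie on the same side of 0 while replicates differ, in LGR4 and ROR2 all 6 arrays lie above 0, and in CTNNB1 every array with treated RNA in Cy5 lies above its dye swap.

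The inhibitors act outside the cell or at its surface, and 6 of 9 were above background, with a median of -0.14. That median includes DKK1, which was kept through control RNA alone, a way of passing that favours a mean below 0. SFRP2, a secreted decoy that binds Wnt proteins, had the widest spread of the 38 genes. Its raw intensity was 622, 565, 869, 888, 1089 and 1093 in treated RNA, against 2188, 2055, 776, 649, 559 and 671 in control RNA. The control RNA of replicate 1 stood apart from the other control RNAs. In that replicate the ratios were -1.76 and -2.23, while they were 0.44, 0.20, 1.06 and 0.48 on the arrays of replicates 2 and 3. SFRP2 averaged -0.30 ± 1.48 (SD, n = 3; limma adjusted p = 0.937, 95% interval -1.50 to 0.90), and 0.55 without replicate 1. The summed level of the theca and stroma markers had ratios of -0.39, 0.10 and -0.10 in replicates 1, 2 and 3, while the median over the 7 markers was -0.01, 0.04 and -0.17. The sum over the 7 ranged from 14600 to 18500 in treated RNA and from 15700 to 20000 in control RNA. Of the 7, ACTA2 had replicate means of -1.18, 0.19 and 0.20, DCN 0.52, 0.04 and -0.50, and COL1A1 0.16, 0.15 and -0.49. PDGFRB had -0.67, -0.19 and -0.04, and MYH11 -0.17, -0.51 and -0.14. DES had -0.01, -0.01 and -0.39, and INSL3 0.01, 0.59 and -0.17. The summed leukocyte markers had ratios of -0.27, 0.07 and -0.64, with 1650 to 1930 in treated RNA and 1570 to 3010 in control RNA over 4 markers. The summed granulosa markers had ratios of 0.27, -0.09 and -0.01. The part of other cells in the SFRP2 values was not tested.

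DKK1, which blocks LRP6, was above background on 3 arrays in treated RNA and on 4 in control RNA. Its replicate means were -0.11, -0.46 and -0.13, with an average of -0.24 ± 0.20 (n = 3; limma adjusted p = 0.860). DKK1 stood at -0.12 without replicate 2 and at -0.07 with the mean in place of the median intensity of each spot. DKK3, a relative of DKK1, averaged -0.22 ± 0.36, with -0.63 in replicate 3 and values of -0.08 and 0.05 in replicates 1 and 2, and stood at -0.01 without replicate 3. RNF43, a ubiquitin ligase that removes Frizzled from the surface, averaged 0.12 ± 0.08, and SFRP1 and SFRP4 stood at -0.03 and -0.05. The 95% interval of each of these 6 genes included 0.

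Among the cytoplasmic genes, 6 of 8 were above background, with a median of -0.16. That median includes GSK3A and NKD1, which were kept through control RNA alone, a way of passing that favours a mean below 0. AXIN1 and AXIN2 encode scaffolds of the complex that destroys beta-catenin, and AXIN2 is itself a transcript raised by beta-catenin in many tissues. AXIN1 was lower on 5 of 6 arrays, with ratios of -0.24, -0.56, -0.21, 0.07, -0.66 and -0.31. It averaged -0.32 ± 0.22 (SD, n = 3; limma adjusted p = 0.860, 95% interval -0.66 to 0.02). AXIN2, singled out after its values were seen, was higher on 5 of 6 arrays, with replicate means of 0.01, 0.35 and 0.43 and an average of 0.26 ± 0.22 (limma adjusted p = 0.860). Its signal lay near the negative controls, above background on 6 arrays in treated RNA and on 4 in control RNA. The 2 scaffold genes thus had means of opposite sign, and neither passed the test. DVL2, which carries the signal from Frizzled, averaged -0.27 ± 0.37, with replicate means of -0.68, 0.01 and -0.15, and stood at -0.07 without replicate 1 and at -0.41 without replicate 2. GSK3A encodes a kinase of the complex and was above background on 1 array in treated RNA and on 4 in control RNA. It averaged -0.23 ± 0.04, yet stood at 0.00 with the treated RNA in Cy5 and at -0.46 with it in Cy3, and at -0.09 with the mean intensity of each spot. APC, another scaffold, had -0.08 ± 0.17 on its brightest probe and 0.17 on another probe above background, so its sign depends on the probe. NKD1, a feedback inhibitor that binds Dishevelled, averaged -0.09.

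All 5 nuclear genes were above background, with a median of 0.02. CTNNB1 had raw intensities of 32219, 26559, 26485, 21348, 23544 and 15284 in treated RNA, against 13412, 24404, 20681, 29937, 19719 and 30625 in control RNA. Treated RNA was the brighter on the 3 arrays that carried it in Cy5 and on 1 of the 3 that carried it in Cy3. Normalized, the ratios were 1.11 and 0.09 in replicate 1, 0.32 and -0.50 in replicate 2, and 0.06 and -0.98 in replicate 3. The mean was 0.02 ± 0.54 (SD, n = 3; limma adjusted p = 0.991, 95% interval -0.49 to 0.53). That interval includes differences in CTNNB1 transcript of either sign, so the values do not show that the transcript stayed the same. The array does not report on the protein.

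LEF1, a DNA-binding partner of beta-catenin, was the single gene of the 38 that was lower on all 6 arrays. Its ratios were -0.15, -0.69, -0.16, -0.44, -0.06 and -0.03, with an average of -0.26 ± 0.19 (n = 3; limma adjusted p = 0.860). It was above background on 2 arrays in treated RNA and on 5 in control RNA, so its sign too is favoured by how it was kept, and with the mean in place of the median intensity of each spot it came to 0.00. TCF7, of the same family, had replicate means of -0.38, 0.79 and 0.32 with the sign shared by both arrays of each, and averaged 0.24 ± 0.59 (limma adjusted p = 0.885). TCF7L2 averaged 0.48 ± 0.67 (limma adjusted p = 0.860), but that mean rested on replicate 3: the ratios there were 1.20 and 1.31, while those of replicates 1 and 2 lay between -0.02 and 0.24. Without replicate 3 the mean of TCF7L2 was 0.09. The other probes of TCF7L2, with means of -0.09 and -0.04, were not above background, so the value rests on a single probe. TCF7L1, which often acts as a repressor, had -0.11 on its brightest probe, -0.05 on the second and 0.17 on the third.

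Both arrays of a replicate gave the same sign in all 3 replicates for 10 of the 38 genes, beside 22.8% of all genes. Of the 38, 6 had such agreement while the sign differed between replicates, beside 16.8% of all genes: they were SFRP2, WNT5B, WNT8A, RYK, TCF7 and DVL2. For those genes the dye swap gave the same side of 0 each time, and the replicates did not.

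A dye effect, tested with limma on the mean Cy5 over Cy3 ratio in which the treatment cancels, was found for 3 of the 43 probes, beside 9.03% of all probes above background. CTNNB1 was brighter in Cy5, with a treated over control ratio of 0.50 with treated RNA in Cy5 and -0.46 with it in Cy3 (limma adjusted p = 0.00186). A probe of TCF7L1 had 0.63 and -0.29 (limma adjusted p = 0.00810), and LRP6, which was brighter in Cy3, had -0.94 and -0.17 (limma adjusted p = 0.0152). In CTNNB1 and TCF7L1 the sign turned with the dye. In LRP6 it did not.

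**Figure D4:**
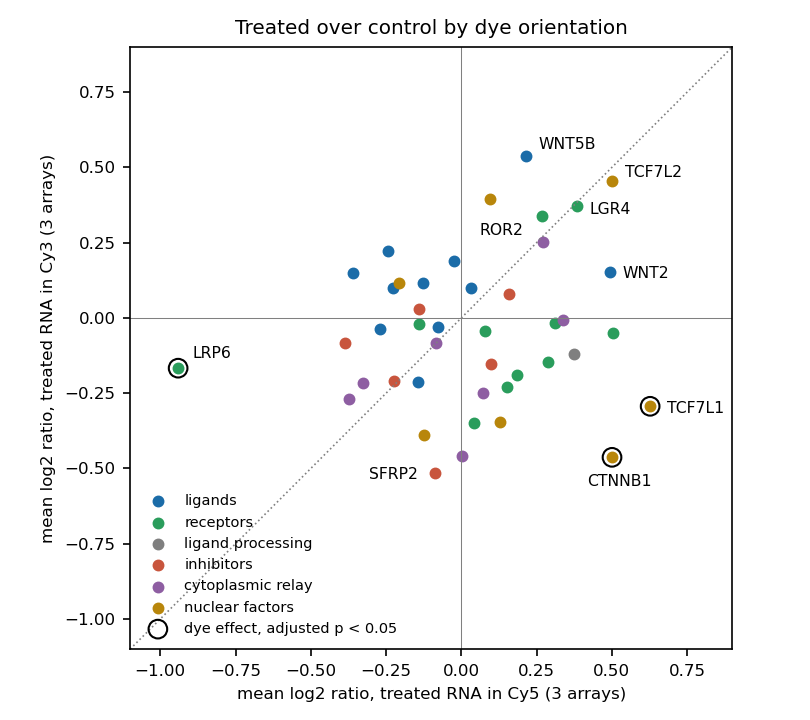
Mean log2 ratio of FGF8-treated over control RNA over the 3 arrays with treated RNA in Cy5 (x axis) and the 3 arrays with treated RNA in Cy3 (y axis) for the 43 probes above background, coloured by role. Points on the dotted line have the same ratio in both orientations, and the 3 ringed probes, of LRP6, CTNNB1 and TCF7L1, had a dye effect at an adjusted p under 0.05.

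Other genes of the pathway, such as casein kinases, corepressors and parts of the planar polarity branch, were listed apart. Of 102 listed, 92 were on the array and 71 above background. This list was put together with earlier results of these data known, so its counts are a description. None of the 71 passed: 0 had a limma adjusted p under 0.05, while 8 lay at an unadjusted p under 0.05, 7 higher and 1 lower, where 5.62% of all genes lay under that value. On all 6 arrays 7 of the 71 were higher, beside 3.46% of all genes, and 1 was lower, beside 2.52%. Their median was 0.05, against 0.01 over all genes. TLE3, a Groucho corepressor that binds TCF factors, had replicate means of 0.51, 0.93 and 0.85 and averaged 0.76 ± 0.22 (SD, n = 3; limma adjusted p = 0.860), which is 1.70-fold. TLE1, of the same family, averaged 0.33 ± 0.11. CSNK1A1, the casein kinase that marks beta-catenin for GSK3, averaged 0.40 ± 0.21, and CSNK1G3, a casein kinase that acts on LRP6, 0.36 ± 0.20 (n = 3 each). These 4 genes were higher on all 6 arrays and above background in both RNAs throughout.

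Genes described elsewhere as targets of beta-catenin formed the last list, of which 38 of 42 were on the array and 23 above background. Again 0 had a limma adjusted p under 0.05, and 6 lay at an unadjusted p under 0.05, all higher in treated RNA, where 5.62% of all genes lay under that value. Of these 6, JUN was above background on 5 arrays in treated RNA and on 1 in control RNA, so its sign is favoured by how it was kept. LGR5 and EDN1 were also kept through treated RNA alone, which favours a mean above 0. MSX1 and FGF20 were kept through control RNA alone, which favours a mean below 0. Higher on all 6 arrays were 5 of the 23, beside 3.46% of all genes, and lower on all 6 were 0, beside 2.52%. The list was put together with earlier results of these data known, so these counts are a description. LGR5 and APCDD1 are counted here and among the other pathway genes. The median was 0.15, against 0.01 over all genes, with 0.06, 0.22 and 0.33 in replicates 1, 2 and 3. FOSL1, an AP-1 subunit that growth factors also induce through ERK, had replicate means of 0.76, 1.84 and 0.92. SNAI2, a repressor of E-cadherin, had 0.69, 0.91 and 1.82. ENC1, an actin-binding protein, had 1.11, 0.41 and 1.08, and TWIST1, a bHLH transcription factor, 0.40, 0.29 and 0.45. The means were 1.17 ± 0.58 for FOSL1, 1.14 ± 0.59 for SNAI2, 0.87 ± 0.40 for ENC1 and 0.38 ± 0.08 for TWIST1 (SD, n = 3 each; limma adjusted p = 0.860 for each). All 4 were higher on 6 of 6 arrays. Many genes on this list answer to other signals too, and AXIN2, which is counted among the pathway genes above, averaged 0.26 with a signal near the negative controls.

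**Figure D5:**
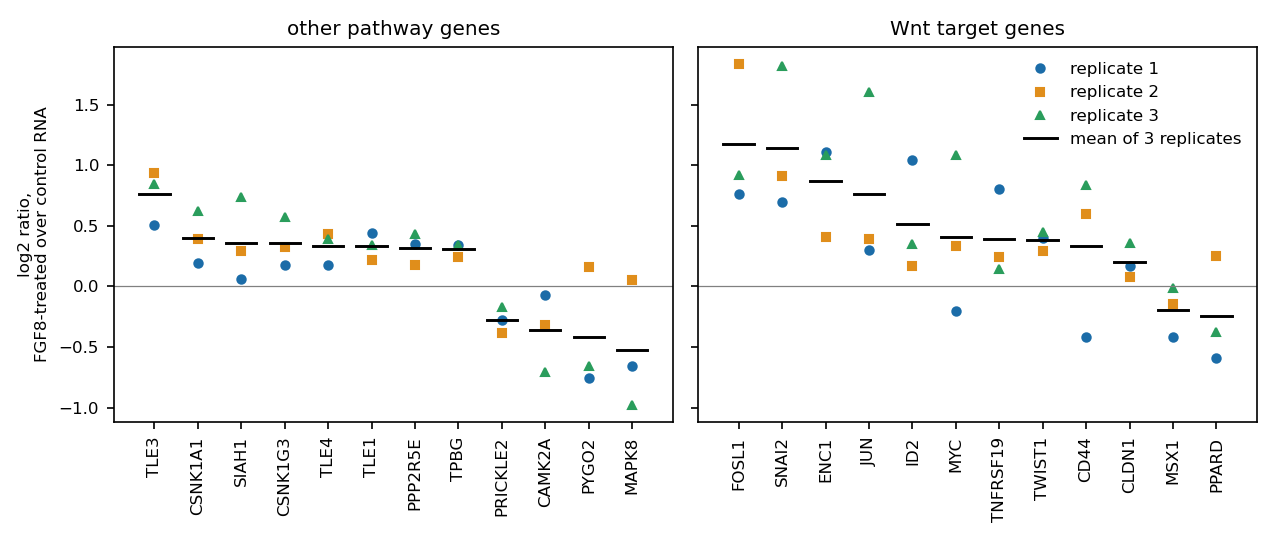
Log2 ratio of FGF8-treated over control RNA in replicates 1, 2 and 3 (points) and their mean (bars) for the 12 genes with the smallest p among the other pathway genes (left) and among the Wnt target genes (right). None passed the threshold; TLE3 averaged 0.76, FOSL1 1.17 and SNAI2 1.14.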

How the data were processed

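Per the labels' protocols, RNA was amplified with T7 polymerase and coupled to Cy3 or Cy5. Per the file headers, the scanner tables give foreground and local background intensity per spot, uncorrected. The deposited log2 ratios, whose direction was found from the scanner values, correlated at 1.00 with median foreground minus background after loess; their array medians were 0.0025, 0.0030, 0.0018, -0.00085, 0.0063 and 0.0067, and further steps are not stated here. From the intensities, limma 3.58.1 in R 4.3.3 computed normexp (offset 50) on medians, then loess with control spots at weight 0. The 5 spots dimmer than their own background were left out, a choice made after seeing the data: 1 spot with a background of 65483 in Cy5 had put 67.4% of ratios on 1 array within 0.1 of 0, against 20.8% without those spots. The 143 ignored probes were left out, and 27209 were kept. Signs were turned to treated over control, dye swaps averaged, and the 3 resulting values compared with 0 by lmFit and eBayes (two-sided).

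The 2 RNAs of each replicate number were hybridised together, which pairs them. Correlations of their deviations were 0.127, 0.406 and 0.391 for equal numbers and -0.348 to 0.110 for unequal ones. These values cannot show that the samples are paired, since RNAs of equal number were read from the same spots and arrays. Taking deviations from the mean over replicates also lowers the correlations of unequal numbers. Symbols came from the platform annotation, which names 21790 probes. In each role the text names genes of 1 sign on all 6 arrays, the 2 smallest p, the 2 largest means and the 2 brightest, and 4 by p from each further list. Genes and lists were chosen with earlier results of these data known. The test was run on simulated data first. Alternatives covered background, normalization, filters, variance model, replicates, dyes and the deposited ratios.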

Additional observations from a re-analysis of the deposited data

Results flagged for a closer look

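In 3 genes the ratio differed between dye orientations by limma's test of the mean log2 Cy5 over Cy3 ratio. This ratio was 0.48 for CTNNB1 (limma adjusted p = 0.00186), 0.46 for a probe of TCF7L1 (limma adjusted p = 0.00810) and -0.39 for LRP6 (limma adjusted p = 0.0152). It was above 0 in CTNNB1 and TCF7L1, which were brighter in Cy5, and below 0 in LRP6, which was brighter in Cy3. Averaging both orientations removes this ratio from the means given above and not from single arrays.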

How the results depend on the processing

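No gene of the 38 had a limma adjusted p under 0.05 under any setting run, deposited ratios included. The count at an unadjusted p under 0.05 (1 of 38 here, 5.62% of all genes) was 2 of 43 with the mean foreground (5.69%) and 2 with median centring (7.09%). It was 5 of 55 with no filter (6.00%), 0 of 24 with signal required on all 6 arrays in either RNA (5.08%) and 4 with an intensity trend (5.02%). With treated RNA in Cy5 alone it was 5 (12.7%), and in Cy3 alone 1 (9.41%). Without replicate 1, 2 or 3 it was 5 (6.28%), 1 (6.96%) or 0 (4.5%). With the replicate block over 6 arrays (correlation within replicates 0.178) it was 6 (9.25%), as without the block (11.6%). These fits, which take degrees of freedom from arrays, called 11 and 15 of all genes and 0 of the 38. Genes higher on all arrays (3 here, 3.46% of all genes) were 1 of 43 with the mean foreground (4.86%). They were 10 in Cy5 alone (18.7%) and 4 in Cy3 alone (15.9%). Without replicate 1, 2 or 3 there were 7 (9.96%), 5 (11.4%) or 5 (7.89%). Genes lower on all arrays (1 here, 2.52% of all genes) were 2 of 55 with no filter (2.19%) and 0 of 24 with signal required on all 6 (2.82%). They were 9 in Cy5 alone (16.0%) and 5 in Cy3 alone (15.6%). Leaving out replicate 1, 2 or 3 gave 5 (8.24%), 6 (10.5%) or 2 (7.46%). Fewer arrays make 1 sign likelier by construction. The median of -0.05 was -0.0049 both with no filter and with signal required on all 6 arrays, and 0.017 in Cy5 alone. Genes above background on all 6 arrays in either RNA were 24, against 17 in both RNAs by their brightest probe.

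Of 286 values of 18 named genes under alternatives, 10 changed sign. They were PORCN with treated RNA in Cy3 alone (-0.12), SFRP2 without replicate 1 (0.55; range from -0.83 without replicate 3), GSK3A in Cy5 alone (0.0030), APC with median centring (0.062) and as the mean of its probes (0.042), LEF1 with the mean foreground (0.0046), CTNNB1 with the mean foreground (-0.030), without replicate 1 (-0.27; range up to 0.26) and in Cy3 alone (-0.46), and TCF7 without replicate 2 (-0.029; range up to 0.56). Dim probes such as WNT2, AXIN2, LEF1 and GSK3A are near the negative controls, which limits what their ratios show. With the 5 spots left in the fit, an alternative chosen after seeing the data, the counts were the same and the median -0.05. Beyond the effect of leaving out arrays, the cause of these shifts was not tested.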
